A study of Mus musculus with 12 samples.

Results

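Interferon-stimulated genes and interferon-inducible GTPases were followed in mouse striatum after repeated morphine, with or without the histone deacetylase inhibitor sodium butyrate. The list held 37 genes, chosen by name. Of these, 33 had at least 1 probe set that the platform annotation gives to a single gene symbol, among 19935 such genes on the array. Gbp2, Gbp6, Igtp and Irgm2 share their probe sets with other symbols and were not measured by this rule. Gbp4 and Oas1a each had 1 single-symbol probe set and 1 shared with other symbols, which was not used. Of the measured genes 3 (Ifitm1, Ifitm2 and Irf1) had several probe sets, which were averaged.

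All samples were striatal RNA of 2-month-old male Swiss-Albino mice on Affymetrix Mouse Gene 1.0 ST arrays, with equal RNA amounts from 4 animals pooled for each array. The saline group (6 arrays) had vehicle injections throughout the induction phase. The morphine group (3 arrays) had vehicle and then morphine at 20 mg/kg on each of 6 induction days, and the butyrate-morphine group (3 arrays) had sodium butyrate at 300 mg/kg in place of vehicle. The challenge injection followed after a break of 7 days, and the striatum was sampled at 1 h. The labels disagree on the challenge of the saline group, with saline in the source names and morphine for all animals in the protocol text. A difference from saline therefore covers either the last and the earlier morphine injections together or the earlier ones alone. The labels call the pools biological replicates but do not say whether they were treated on separate occasions. The p-values therefore cover at most how pools differed from each other, and for the saline pools only part of that.

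The values are differences from a saline baseline as deposited by the authors, on a log scale whose base was not stated and was taken as log2. Saline arrays 1 and 2, 3 and 4, and 5 and 6 are mirror images in every row, so the saline mean is 0 and these 6 arrays hold 3 independent values per gene. Each pair has a mean of 0, so differences between pairs do not show. The saline spread and range can therefore understate those among pools, and the p-values and statements on overlap with saline rest on them. Absolute levels were lost in this centring, and levels cannot be compared between genes. A coarse class remains in the rounding of the numbers, which shows whether the stored log2 value was between 4 and 8 or above 8. By this class 7 of 8 measured markers of striatal projection neurons had stored values of 8 or more, among them the dopamine receptors Drd1 and Drd2. Over all single-symbol probe sets 24% were in that class. Of the interferon-stimulated genes 31 were in the class of 4 to 8, none was above it, and Dhx58 and Mx2 could not be read. Fewer cells of a type and less RNA per cell cannot be told apart in bulk tissue of this kind.

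Interferons are secreted alarm signals. Type I interferons act through the receptor chains Ifnar1 and Ifnar2, and lead to binding of Irf9 and Stat2 at the interferon-stimulated response element (ISRE) in target promoters. Interferon gamma acts through Ifngr1 and Ifngr2, and its targets carry the gamma-activated site (GAS). Targets include antiviral proteins of the Ifit, Oas, Mx and Ifitm families and the large guanylate-binding proteins (Gbp) and smaller immunity-related GTPases that attack the membranes around intracellular pathogens. In brain, microglia and blood vessel endothelium are among the cells that respond to interferon, and basal interferon tone is low in healthy tissue.

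The promoter letters of 3 of the genes that the results turn on can be shown, while Gbp4, which had the largest difference, had no entry in the table used and is not printed. The sequences of 27 of the 37 genes were matched by symbol in a RefSeq promoter table of assembly GRCm38.p6, in windows of 250 bases before to 50 after each annotated start. The 250 bases before the start are printed for the 3 genes past the threshold in any comparison that had an entry (Gbp3, Ifit3 and Irf8). Ifit1, a classical interferon target that did not pass in any comparison, is added beside them. All lie on the plus strand and run 5′ to 3′. Genes and motifs were picked after the values were known. Capitals mark the ISRE core in Gbp3, Ifit3 and Ifit1, which is 2 copies of GAAA with any 2 bases between them, here on the minus strand and so printed as TTTC. In Irf8 they mark the GAS core TTCNNNGAA, which reads alike on both strands.
Gbp3, chr3:142559794-142560043: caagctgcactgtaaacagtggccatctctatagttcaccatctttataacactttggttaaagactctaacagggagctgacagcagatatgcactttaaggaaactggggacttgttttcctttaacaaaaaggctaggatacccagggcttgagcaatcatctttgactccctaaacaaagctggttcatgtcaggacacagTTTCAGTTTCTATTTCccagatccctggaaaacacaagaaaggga
Ifit3, chr19:34583279-34583528: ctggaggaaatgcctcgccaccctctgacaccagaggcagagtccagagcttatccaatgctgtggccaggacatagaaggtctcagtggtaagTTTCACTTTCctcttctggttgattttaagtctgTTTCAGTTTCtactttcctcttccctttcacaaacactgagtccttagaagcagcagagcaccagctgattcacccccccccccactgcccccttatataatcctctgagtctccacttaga
Irf8, chr8:120736108-120736357: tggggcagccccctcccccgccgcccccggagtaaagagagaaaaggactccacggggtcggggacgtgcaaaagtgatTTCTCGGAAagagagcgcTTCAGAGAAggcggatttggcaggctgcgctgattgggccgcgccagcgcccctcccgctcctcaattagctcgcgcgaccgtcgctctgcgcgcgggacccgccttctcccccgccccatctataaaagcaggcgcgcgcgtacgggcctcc
Ifit1, chr19:34640639-34640888: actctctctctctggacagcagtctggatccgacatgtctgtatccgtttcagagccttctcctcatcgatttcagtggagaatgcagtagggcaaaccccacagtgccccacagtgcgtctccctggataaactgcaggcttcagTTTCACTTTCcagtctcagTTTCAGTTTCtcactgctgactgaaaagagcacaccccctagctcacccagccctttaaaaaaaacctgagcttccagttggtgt

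Each of the 4 windows held 2 matches, and the 2 in Gbp3 overlap, 45 and 39 bases before the start. In Ifit3 they begin 156 and 122 bases before it, in Ifit1 104 and 85, and in Irf8 171 and 153. Searched on both strands over the full 300-base windows, the ISRE core was present in 16 of the 27 matched genes (16 of 32 windows, 50%) and in 3.44% of all 32851 promoters. The GAS core was present in 9 of the 27 (28.1% of windows) against 8.3% of all promoters. A match is a description of the letters, not a measured binding site. Among the 3 printed windows with ISRE matches, Gbp3 was lower after morphine, Ifit3 was higher with both morphine groups averaged, and Ifit1 did not pass in any comparison.

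Most of the list stayed close to saline. In morphine 30 of the 33 genes, and in butyrate-morphine also 30, differed from saline by less than 0.2 on the log2 scale. The median difference was -0.028 in morphine and -0.053 in butyrate-morphine, beside -0.0036 and 0.0063 over all genes tested. In morphine 22 of 33 genes lay below saline and in butyrate-morphine 27 of 33, where 52.2% and 46.4% of all genes did. With both morphine groups averaged 26 lay below, beside 49.3%. Both comparisons use the same saline arrays.

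**Figure D1:**
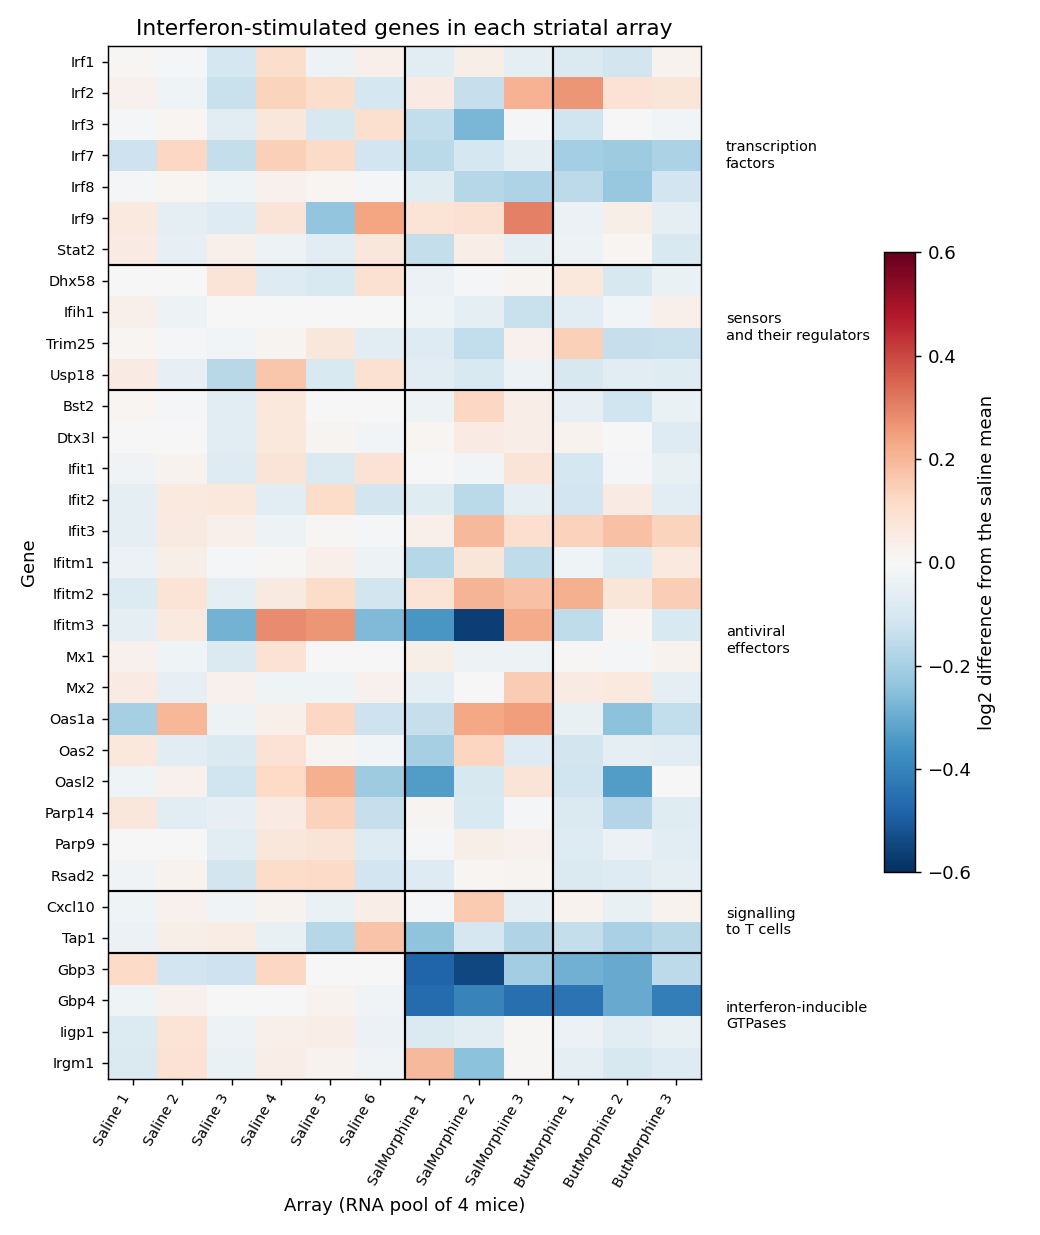
Heat map of the log2 difference from the saline mean for the 33 measured genes (rows, grouped by role) in each of the 12 arrays (columns, each a pool of 4 mice), with blue below and red above saline. Gbp4 is blue in all 6 arrays of the morphine-treated groups, Gbp3 likewise but less evenly, and most other rows show no colour change between groups beyond that among the saline arrays.

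By limma, with p-values adjusted over all genes by the Benjamini-Hochberg method and a threshold of 0.05, 2 genes of the list were called in morphine against saline, Gbp4 and Gbp3. Calls made up 2.66% of all genes, and 1.29% were called lower, as both of these were. In butyrate-morphine against saline the calls were also 2, Gbp4 and Irf8, both lower, beside 2.48% of all genes called and 0.637% called lower. With both morphine groups averaged against saline 4 were called, beside 4.59% of all genes. Gbp4, Gbp3 and Irf8 were lower (1.91% of all genes) and Ifit3 was higher (2.69%).

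At an unadjusted p under 0.05 the list had 8 genes in morphine, 7 in butyrate-morphine and 7 for both averaged, where all genes had 15.5%, 17% and 19.1%. The arrays did not overlap with saline for 3 genes in morphine and 5 in butyrate-morphine, beside 8.2% and 11.7% of all genes, which is near the background. Irf8, Gbp3 and Gbp4 lay below saline in both, and Irf7 in butyrate-morphine alone, beside 4.35% and 4.55% of all genes. For both morphine groups together Irf8, Gbp3 and Gbp4 lay below, beside 1.34% of all genes below and 3.29% in either direction. Ifit3 lay above all saline arrays in butyrate-morphine, as 7.1% of all genes did. In simulated arrays centred like these, false calls were more frequent than the threshold allows. This bears on calls with an adjusted p near it, such as those of Irf8 and Ifit3. In the wider list it bears on Tapbp, Ifnar1, Il10rb, Myd88 and Sp100. Counts this small carry little about the list as a whole, and the results that follow are about single genes.

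The guanylate-binding proteins held the largest differences. Gbp4 lay between -0.03 and 0.03 around a median of 0 in the saline arrays. In the 3 morphine arrays it was at -0.46, -0.40 and -0.45, and in the 3 butyrate-morphine arrays at -0.44, -0.30 and -0.41. All 6 arrays were far below the lowest saline array, with no overlap. The fall was to 0.738 of saline in morphine (-0.44 ± 0.03, SD, n = 3, limma adjusted p = 1.87e-05). It was to 0.765 of saline in butyrate-morphine (-0.39 ± 0.07, SD, n = 3, limma adjusted p = 5.34e-05). Gbp4 passed the threshold in each of the 9 fits that left out a morphine-treated array or a mirrored pair of saline arrays, in both comparisons.

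Gbp3, a close relative of Gbp4, was more variable. It lay between -0.12 and 0.12 in saline, around a median of 0. The morphine arrays were at -0.48, -0.55 and -0.21, and the butyrate-morphine arrays at -0.29, -0.30 and -0.16. All 6 were below the lowest saline array, though morphine array 3 and butyrate-morphine array 3 came close to it. Gbp3 fell to 0.751 of saline in morphine (-0.41 ± 0.18, SD, n = 3, limma adjusted p = 0.0127). In butyrate-morphine it was at 0.842 of saline (-0.25 ± 0.08, SD, n = 3) and did not pass (limma adjusted p = 0.109). The call in morphine was lost without saline arrays 5 and 6 (adjusted p = 0.0667) and with array weights (0.056). It was also lost after quantile normalization (0.346) and with the replicate number as a block (0.239). With both morphine groups averaged Gbp3 was at -0.33 (limma adjusted p = 0.00898). That call was lost without saline arrays 5 and 6 (0.0584), after quantile normalization (0.151) and with the replicate number as a block (0.233). In the block fit the groups were compared with saline arrays 1 to 3 alone, as numbers 4 to 6 occur only in saline.

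The immunity-related GTPases on the list moved little. Irgm1, which guards the host cell's own membranes, was at -0.02 ± 0.22 in morphine and -0.08 ± 0.02 in butyrate-morphine. Of its morphine arrays 1 lay above the saline arrays, 1 below and 1 among them. Iigp1, an effector that coats pathogen vacuoles, was at -0.05 ± 0.05 and -0.05 ± 0.01. Neither passed. Of the 4 measured guanylate-binding proteins and immunity-related GTPases of the list, 2 fell in morphine and 1 in butyrate-morphine. Over all genes 1.29% and 0.637% were called lower.

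**Figure D2:**
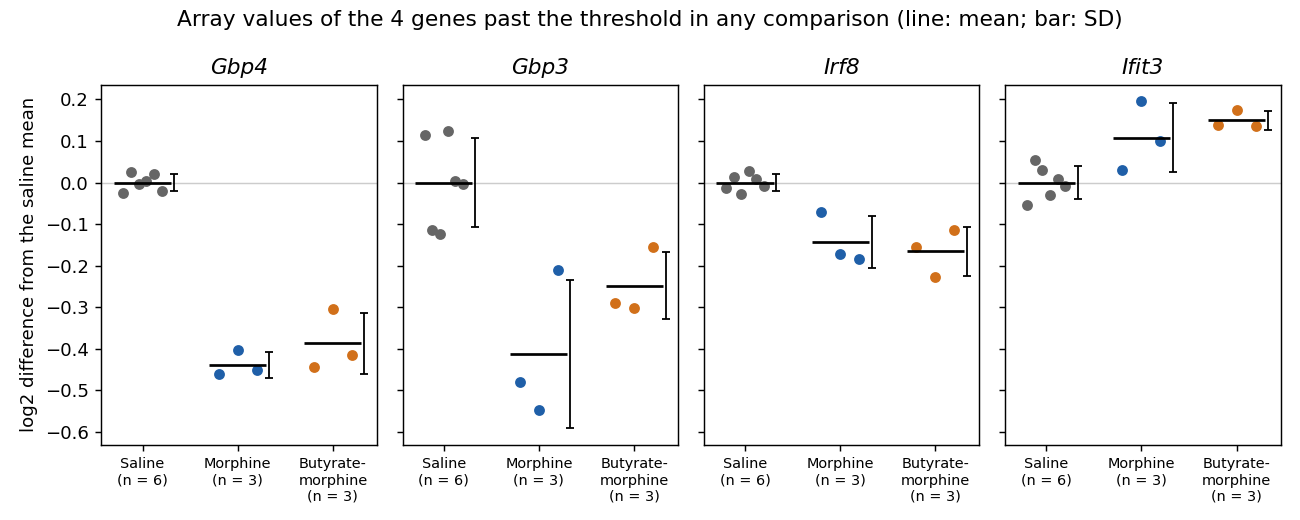
Log2 difference from the saline mean (vertical axis) for Gbp4, Gbp3, Irf8 and Ifit3 in each array, by group; points are arrays, horizontal lines group means and vertical bars the SD. For Gbp4, Gbp3 and Irf8 the 6 morphine-treated arrays all lie below the lowest saline array, and for Ifit3 1 morphine array lies among the saline arrays.

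The transcription factors of the pathway gave 1 call. Irf8, a factor needed for the development of microglia and other myeloid cells, lay in the saline arrays between -0.03 and 0.03 around a median of 0. It was at -0.07, -0.17 and -0.18 in the morphine arrays and at -0.15, -0.23 and -0.11 in the butyrate-morphine arrays. Every morphine-treated array lay below every saline array. Irf8 fell to 0.892 of saline in butyrate-morphine (-0.17 ± 0.06, SD, n = 3, limma adjusted p = 0.0306). In morphine it was at 0.906 of saline (-0.14 ± 0.06, SD, n = 3) and just missed the threshold (limma adjusted p = 0.0541). The call in butyrate-morphine was lost without butyrate-morphine array 1 (adjusted p = 0.0914) or array 2 (0.145) and without any of the 3 pairs of saline arrays (0.101 to 0.147). It was also lost after quantile normalization (0.0589), with trend and robust moderation (0.0828), with no saline array in the fit (0.0696) and with the replicate number as a block (0.354). With both morphine groups averaged Irf8 was at -0.15 (limma adjusted p = 0.00943), and the 3 fits without a saline pair and the fit with the block (0.288) lost the call.

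Irf7, which amplifies type I interferon production, was at -0.16, -0.10 and -0.05 in morphine and at -0.21, -0.21 and -0.19 in butyrate-morphine. Its saline arrays ranged from -0.14 to 0.14. The butyrate-morphine arrays lay just below that range and the morphine arrays overlapped it. The difference of -0.20 ± 0.01 in butyrate-morphine did not pass (limma adjusted p = 0.15), though it did with no saline array in the fit and the baseline taken as 0 (adjusted p = 0.0285). Irf3, the factor that viral RNA and DNA sensors activate first, was at -0.14 ± 0.13 in morphine and -0.05 ± 0.06 in butyrate-morphine (limma adjusted p = 0.24 and 0.753).

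Irf9 and Stat2, the partners that carry the type I signal to the ISRE, showed no called difference. Irf9 was at 0.16 ± 0.13 in morphine and -0.02 ± 0.05 in butyrate-morphine, with saline arrays from -0.24 to 0.24. Stat2 was at -0.05 ± 0.09 and -0.04 ± 0.05. Irf1, an early target of interferon gamma, was at -0.03 ± 0.06 and -0.06 ± 0.07, and its antagonist Irf2 was at 0.04 ± 0.17 and 0.14 ± 0.11.

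Antiviral effectors formed the largest group, with 16 genes, and none was called by limma in either comparison with saline. At an unadjusted p under 0.05 there were 2 in morphine and 2 in butyrate-morphine, beside 15.5% and 17% of all genes. The median of the 16 genes was 0.0046 in morphine and -0.057 in butyrate-morphine. Ifit3, which stabilises the Ifit complex that holds foreign RNA, was between -0.06 and 0.06 in saline around a median of 0. It was at 0.03, 0.20 and 0.10 in morphine and at 0.14, 0.17 and 0.14 in butyrate-morphine. The butyrate-morphine arrays were all above the saline range, while morphine array 1 lay within it. Ifit3 passed when both morphine groups were averaged, at 1.09-fold (0.13, SE 0.03, limma adjusted p = 0.0384). That call held in 2 of the 9 fits with arrays left out, those without morphine array 1 or morphine array 2, and the adjusted p was up to 0.154 in the others. It was also lost after quantile normalization (0.258), with trend and robust moderation (0.0755) and with the block (0.315).

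Other members of the same families did not follow Ifit3. Ifit1, whose protein binds viral RNA that lacks the cap mark of the host, was at 0.02 ± 0.05 in morphine and -0.05 ± 0.05 in butyrate-morphine. Ifit2 was at -0.10 ± 0.05 and -0.04 ± 0.08. Mx1 and Mx2, dynamin-like GTPases that block viral replication, had group means between -0.01 and 0.03, with single arrays of Mx2 from -0.06 to 0.15. Rsad2 (viperin), which makes a chain-terminating nucleotide, was at -0.02 ± 0.05 and -0.08 ± 0.01.

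The Ifitm proteins, which hinder fusion of viruses with the cell membrane, differed among themselves. Ifitm2 was at 0.08, 0.20 and 0.17 in morphine and at 0.22, 0.07 and 0.15 in butyrate-morphine, with saline arrays from -0.11 to 0.11. The groups overlapped, and the differences of 0.15 ± 0.06 and 0.14 ± 0.07 did not pass (limma adjusted p = 0.174 and 0.199). Ifitm3 was the most variable gene of the list, from -0.28 to 0.28 in saline and at -0.35, -0.56 and 0.22 in morphine. Its mean of -0.23 ± 0.41 in morphine did not pass. Ifitm1 was at -0.08 ± 0.14 in morphine and -0.02 ± 0.07 in butyrate-morphine. Its 2 probe sets disagreed in sign in several arrays, among them morphine array 2, at 0.27 and -0.12, and butyrate-morphine array 3, at 0.16 and -0.04.

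The oligoadenylate synthetases, which switch on degradation of viral RNA, scattered widely. Oas1a was at -0.14, 0.23 and 0.25 in morphine and at -0.04, -0.25 and -0.15 in butyrate-morphine. Its saline arrays ranged from -0.20 to 0.20, so morphine arrays 2 and 3 lay above them, butyrate-morphine array 2 lay below them and the other 3 within. Oas2 was at -0.05 ± 0.17 and -0.08 ± 0.03, and Oasl2 at -0.12 ± 0.21 and -0.15 ± 0.17. Bst2 (tetherin), which holds budding virus at the cell surface, was at 0.04 ± 0.08 and -0.07 ± 0.04. The group means of Parp9 and its ubiquitin ligase partner Dtx3l were between -0.06 and 0.03, and Parp14 was at -0.03 ± 0.06 and -0.11 ± 0.06.

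Sensors and their regulators gave no call. The RNA helicase sensor Ifih1 (MDA5) was at -0.07 ± 0.06 in morphine and -0.02 ± 0.05 in butyrate-morphine, and its regulator Dhx58 (LGP2) at -0.01 ± 0.03 and -0.02 ± 0.08. Trim25, a ubiquitin ligase that activates a related sensor, was at -0.07 ± 0.09 and -0.04 ± 0.16. Usp18, which removes the ubiquitin-like Isg15 tag and restrains the receptor, was at -0.06 ± 0.03 and -0.08 ± 0.01. Ifih1 was at -0.02, -0.06 and -0.13 in the morphine arrays, with saline between -0.03 and 0.03, and its adjusted p was 0.315.

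The 2 genes that signal to T cells did not pass either. Tap1, which carries peptides to class I antigen presentation, was at -0.24, -0.10 and -0.18 in morphine and at -0.14, -0.19 and -0.17 in butyrate-morphine. All 6 were below 0, but the saline arrays reached -0.17, so the groups overlapped (limma adjusted p = 0.15 and 0.17). The chemokine Cxcl10 was at 0.03 ± 0.11 in morphine and 0.0004 ± 0.04 in butyrate-morphine.

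**Figure D3:**
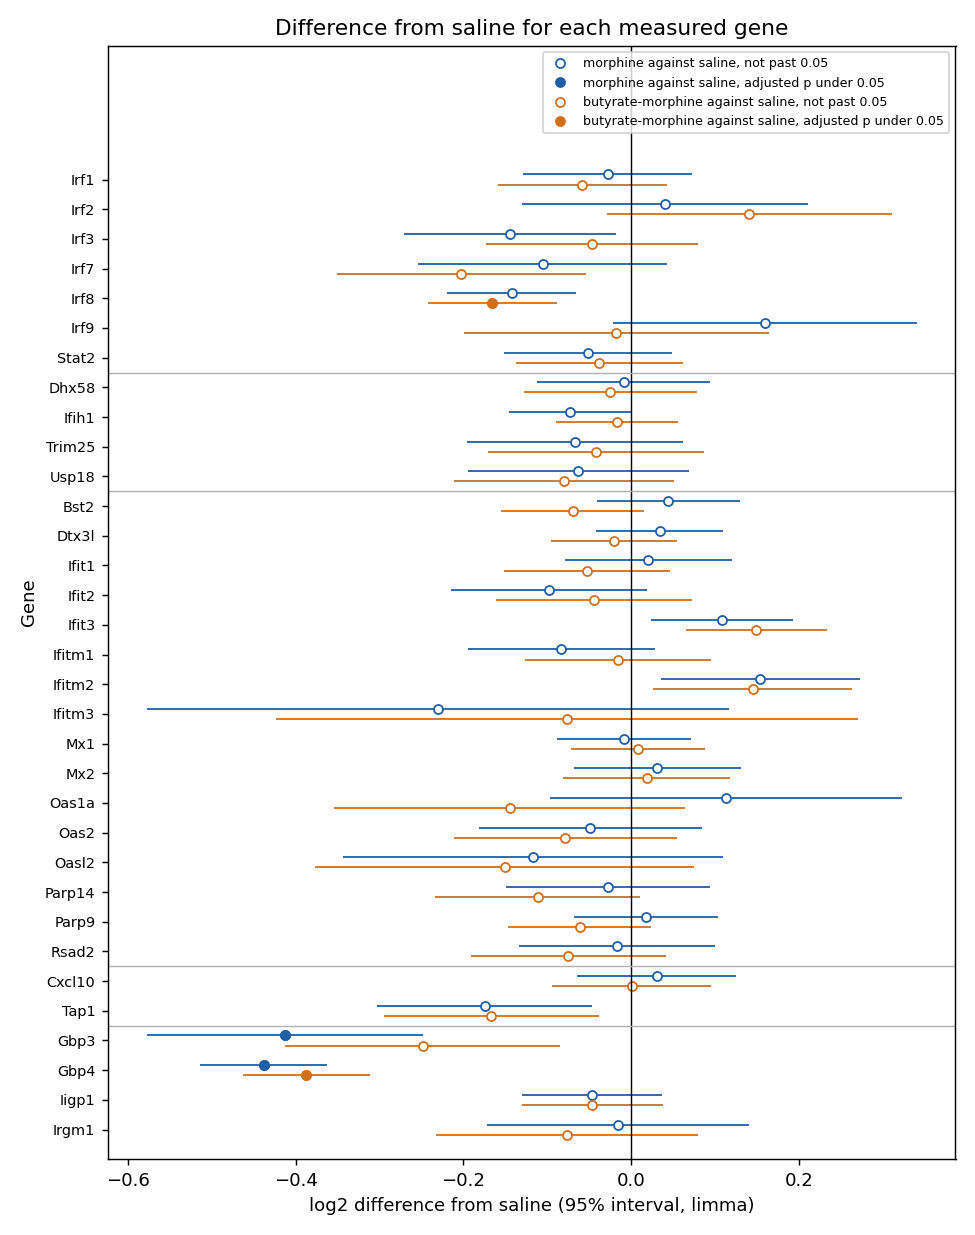
Log2 difference from saline (horizontal axis) with its 95% interval from limma for each of the 33 genes, in morphine (blue) and butyrate-morphine (orange); filled points have an adjusted p under 0.05. Gbp4 is filled in both comparisons, Gbp3 in morphine and Irf8 in butyrate-morphine, and most other intervals include 0.

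Butyrate-morphine was then compared with morphine directly, which asks whether butyrate during induction made a difference. No group had butyrate without morphine, so a changed response to morphine and an effect of butyrate itself cannot be told apart. None of the 33 genes was called by limma, and the share over all genes was 0%. At an unadjusted p under 0.05 there were 2 genes, Oas1a and Bst2, beside 8.62% of all genes. Oas1a was lower with butyrate by 0.26 (95% interval of the difference from -0.50 to -0.02, adjusted p = 0.547). Bst2 was lower by 0.11 (-0.21 to -0.02, adjusted p = 0.507). For Gbp4 the difference was 0.05, with an interval from -0.04 to 0.14, and for Gbp3 0.16, from -0.03 to 0.35. For Irf8 it was -0.02, from -0.11 to 0.07, and for Ifit3 0.04, from -0.06 to 0.14. These intervals leave room for differences in Gbp3 nearly as large as its fall from saline, while for Gbp4 they do not.

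Between the 2 morphine-treated groups 4 genes of the list did not overlap, Irf7, Irf9, Bst2 and Parp9, or 12.1%, beside 10.7% of all genes in either direction. All 4 were lower with butyrate, as 2.99% of all genes were. In all 19 of the 33 genes were lower with butyrate, beside 43.1% of all genes. Irf9 was at 0.08, 0.09 and 0.30 in morphine and at -0.03, 0.03 and -0.05 in butyrate-morphine. Parp9 was at -0.01, 0.04 and 0.02 in morphine and at -0.08, -0.04 and -0.07 in butyrate-morphine. For both genes these values lay within the range of the saline arrays, apart from Irf9 in morphine array 3.

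A wider list of 85 other genes of the pathway, from ligands to antigen presentation, was read in the same way, with 71 measured. In morphine 1 rose and 1 fell, or 2 of 71 beside 2.66% of all genes, which is near the background. In butyrate-morphine limma called 0, beside 2.48%, with 13 at an unadjusted p under 0.05, beside 17% of all genes. The gene that fell was Gbp5, a further guanylate-binding protein, at -0.30 ± 0.06 (limma adjusted p = 0.0155). It was at -0.22 ± 0.12 in butyrate-morphine and did not pass (adjusted p = 0.0612). The call was lost without morphine array 3 (adjusted p = 0.0816), saline arrays 1 and 2 (0.0844) or saline arrays 3 and 4 (0.0599), after quantile normalization (0.223) and with the block (0.178). Of the other measured relatives, Gbp7 was at -0.28 ± 0.17 in morphine and -0.23 ± 0.14 in butyrate-morphine and Gbp9 at -0.13 ± 0.17 and -0.13 ± 0.08, and neither passed. Gbp8 was at 0.0045 ± 0.09 and 0.01 ± 0.08. These genes are close copies, so a probe set given to 1 symbol may still take up RNA of another.

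The gene that rose was Tapbp (tapasin), the chaperone that loads peptides brought by Tap1, at 0.14 ± 0.05 in morphine (limma adjusted p = 0.0374). It lost the call in 5 of the 9 fits with arrays left out, those without morphine array 2 or 3 or any pair of saline arrays (adjusted p up to 0.184), and in 6 fits of other kinds, among them quantile normalization (0.242). With both morphine groups averaged, 5 genes of the wider list were lower, beside 1.91% of all genes, and 1 was higher, beside 2.69%. The lower ones were Gbp5 (-0.26, SE 0.05, lost without saline arrays 1 and 2), the nuclear body gene Sp100 (-0.21, SE 0.05), the adaptor Myd88 (-0.24, SE 0.06), the type I receptor chain Ifnar1 (-0.14, SE 0.03) and the receptor chain Il10rb (-0.12, SE 0.03). With all arrays the limma adjusted p was 0.00691 for Gbp5, 0.0312 for Sp100, 0.043 for Myd88, 0.031 for Ifnar1 and 0.0462 for Il10rb. Ifnar1 kept its call in 4 of the 9 fits with arrays left out, Sp100 in 4, Myd88 in 2 and Il10rb in 1. All 5 lost the call after quantile normalization (limma adjusted p from 0.0692 to 0.483) and with the block (from 0.0943 to 0.431). All but Gbp5 also lost it with trend and robust moderation (from 0.0602 to 0.0868). The ligands Ifnb1 and Ifng were at -0.01 ± 0.03 and 0.02 ± 0.04 in morphine and at -0.01 ± 0.08 and 0.05 ± 0.05 in butyrate-morphine.

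The means over microglia and over endothelial markers were lower in the same arrays as Gbp4, Gbp3 and Irf8. Averaged over 9 microglia markers, the 3 morphine arrays lay between -0.22 and -0.18 and the butyrate-morphine arrays between -0.19 and -0.14, against -0.05 to 0.05 in saline. Of these markers 3 fell in morphine and 2 in butyrate-morphine, where 1.29% and 0.637% of all genes were called lower. The fractalkine receptor Cx3cr1 was at -0.30 and -0.32 and the ADP receptor P2ry13 at -0.52 and -0.45. Csf1r at -0.10 and -0.03, Tmem119 at -0.003 and -0.06 and Trem2 at -0.02 and -0.03 did not pass in either comparison. Averaged over 10 endothelial markers, the morphine arrays lay between -0.28 and -0.21 and the butyrate-morphine arrays between -0.24 and -0.14, against -0.06 to 0.06 in saline. The 4 that fell in each comparison were Kdr, Flt1, Tek and Cldn5, while the other 6 did not pass and Pecam1 was at -0.15 in morphine and 0.08 in butyrate-morphine. Averaged over 9 blood leukocyte markers, the morphine arrays lay between -0.06 and 0.04 and the butyrate-morphine arrays between -0.06 and -0.03, against -0.04 to 0.04 in saline. Of these, Ptprc (CD45), which microglia also express, fell in butyrate-morphine, at -0.20. Over the 33 interferon-stimulated genes the mean lay between -0.09 and -0.0001 in the morphine arrays and between -0.08 and -0.05 in the butyrate-morphine arrays, against -0.05 to 0.05 in saline. Which of these markers are near the detection limit cannot be read from centred values. Their part in the falls of Gbp4, Gbp3 and Irf8 was not tested.

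**Figure D4:**
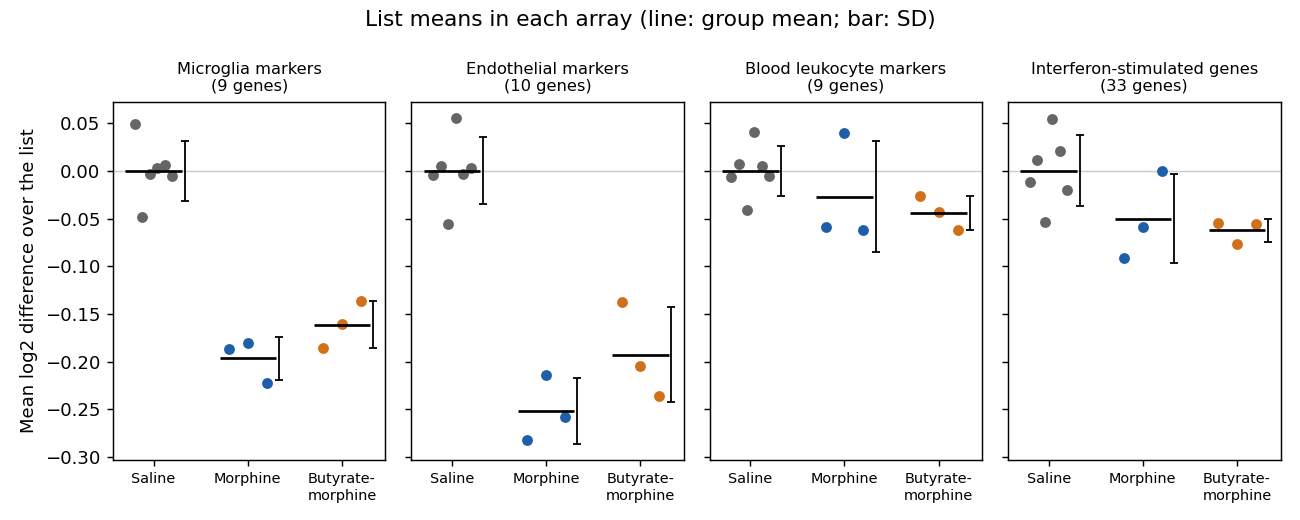
Mean log2 difference from saline (vertical axis) over 9 microglia, 10 endothelial and 9 blood leukocyte markers and over the 33 interferon-stimulated genes in each array, by group; points are arrays, horizontal lines group means and vertical bars the SD. The microglia and endothelial means of all 6 morphine-treated arrays lie below the saline arrays. The mean over the interferon-stimulated genes overlaps with saline in morphine. In butyrate-morphine its highest array (-0.0548) is almost level with the lowest saline array (-0.0541).

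Several other marker lists differed in these arrays. Over all genes 1.37% were called higher in morphine and 1.85% in butyrate-morphine, and 1.29% and 0.637% were called lower. Of 13 measured glucocorticoid-induced genes 10 rose in morphine and 13 in butyrate-morphine, with array means of 0.52 to 0.54 and 0.63 to 0.75. Of 9 choroid plexus markers 9 rose in morphine and 7 in butyrate-morphine, with array means of 1.19 to 1.43 and 0.87 to 1.16. Striatal projection neuron markers averaged -0.15 to -0.10 in the morphine arrays and -0.03 to 0.03 in the butyrate-morphine arrays, against -0.05 to 0.05 in saline, and 2 of 8 (Drd2 and Pde10a) fell in morphine. Astrocyte markers averaged 0.07 to 0.12 and 0.07 to 0.15, against -0.04 to 0.04 in saline, with 1 of 8 (Gjb6) higher in each comparison. Meningeal markers averaged 0.11 to 0.35 and 0.09 to 0.21, against -0.08 to 0.08 in saline. Of these 1 of 6 was higher in each comparison, Igf2 at 0.85 and 0.62. Col1a1 at -0.05 and -0.10 and Col1a2 at 0.003 and 0.01 did not rise. Their part in the values of the interferon-stimulated genes was not tested.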

How the data were processed

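The authors deposited 1 table of 28815 rows by 12 arrays, used here as log2 differences from a baseline. Their log base and the steps from scanner signal to these values were not stated per the labels, and log2 was assumed. The class of stored values was read from the rounding steps of the numbers, with a tolerance of 0.05 steps settled after trying others on these rows. Probe sets with exactly 1 symbol in the platform annotation (21780; 1605 had several and 5430 none) were averaged per gene, giving 19935 genes.

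Groups came from the sample titles. The 12 arrays were fitted with limma 3.58.1 in R 4.3.3 (lmFit and eBayes, 3 group means, 9 residual and 3.99 prior degrees of freedom), with Benjamini-Hochberg adjustment over all genes. The residual degrees of freedom count all 6 saline arrays, though they hold 3 independent values. The fit was tested on simulated arrays centred in the same way, where the share of false calls ran above the nominal threshold. Alternatives covered normalization, probe sets, rows, moderation, weights, arrays, blocks and thresholds. Arrays limit the precision by their number.

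Genes were named by rule: full values for those past the threshold in any comparison and, up to 10, those with the lowest p, and shorter values for the rest. The list and the marker and pathway lists were chosen with earlier results of these data known, and the grouping by role, the motifs and the printed promoters after the genes' values had been seen.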

Additional observations from a re-analysis of the deposited data

How the results depend on the processing

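The counts of called genes of the list were small, and several settings moved them by a gene or more. Quantile normalization gave 1 in morphine, 1 in butyrate-morphine and 2 for both groups averaged. The cause of these changes was not tested. A threshold of 0.01 gave 1 in each single comparison with saline. Array weights gave 1 in morphine, and trend with robust moderation gave 1 in butyrate-morphine. A fit of only the groups compared gave 4 in butyrate-morphine. Entering mirrored saline pairs once, or leaving saline out and testing against 0, gave 7 for both groups averaged. In these settings 2299 and 2023 of all 19935 genes were called, against 916 in the main fit. The genes of the list that joined were Ifitm2, Irf7 and Tap1. Without saline the count in butyrate-morphine was again 2, but with Irf7 in place of Irf8. Leaving out arrays gave 1 to 3 calls in morphine, 1 to 3 in butyrate-morphine and 2 to 5 for both averaged. The count for butyrate-morphine against morphine was 0 in every setting run.

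Same-numbered morphine and butyrate-morphine arrays had residual correlations of -0.122, -0.266 and -0.203, which gave no sign of a pairing by number. Between arrays with unlike numbers the correlations ranged from -0.133 to 0.283. A pairing under other numbers was not tested. The fit with the replicate number as a block left 1 call in each comparison with saline and for both averaged, Gbp4 each time. Numbers 4 to 6 occur only in saline, so that fit compared with saline arrays 1 to 3 alone, whose mean is not 0. Gbp4 was called in every setting of the 3 comparisons with saline. The planned filter on stored values of 8 or more left no gene of the list and gave no value. Over all genes, calls in morphine went from 531 to 75 after quantile normalization, 231 with trend and robust moderation, 54 with the block, 1018 and 150 at thresholds of 0.1 and 0.01, and 152 to 1053 with arrays left out. In butyrate-morphine they went from 495 to 94, 230, 51, 997 and 170 in the same settings, 917 with array weights, 988 with only the groups compared, and 161 to 728 with arrays left out. For both averaged they went from 916 to 195, 524, 83, 1619 and 328, 1481 with array weights, 2299 with mirrored pairs once, 2023 without saline, and 263 to 1368 with arrays left out. For the butyrate difference they went from 0 to at most 23, without morphine array 1.

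Direction was less stable among genes near 0. In the block fit the baseline was the mean of saline arrays 1 to 3, which is not 0. Over all 33 genes and 4 comparisons, and the 6 called genes of the wider list, the sign turned in 90 refits, none of a called difference, in 29 genes. With the replicate block the sign turned to Ifit1 0.00971, Bst2 0.00746, Mx1 0.0282 and Parp9 0.000654 for both averaged, Irf1 0.00633, Rsad2 0.02 and Mx1 0.0202 for morphine and Irf9 0.00745, Ifitm3 0.0177 and Dtx3l 0.00123 for butyrate-morphine. After quantile normalization the sign turned to Stat2 -0.00241, Gbp4 -0.0292, Iigp1 -0.0141, Trim25 -0.00456 and Tap1 -0.0188 for the butyrate difference, Irgm1 0.00706 for morphine and Cxcl10 -0.0046 for butyrate-morphine. By single probe sets the sign turned to Ifitm2 0.0625 for the butyrate difference. With all rows the sign turned to Ifitm2 0.0625 for the butyrate difference. With array weights the sign turned to Ifitm3 -0.00644, Iigp1 -0.0136, Trim25 -0.000568 and Cxcl10 0.00959 for the butyrate difference, Irgm1 0.0169 and Cxcl10 -0.00618 for morphine and Cxcl10 -0.00139 for both averaged. After median centring the sign turned to Iigp1 -0.0107 and Tap1 -0.00335 for the butyrate difference and Cxcl10 -0.00672 for butyrate-morphine. For morphine, the fits with arrays left out gave Ifit1 -0.00921 to 0.038, Irf2 -0.0439 to 0.13, Oas2 -0.138 to 0.0267, Rsad2 -0.0338 to 0.0139, Irgm1 -0.12 to 0.0999 and Dhx58 -0.0222 to 0.00401. For morphine, the fits with arrays left out gave Mx1 -0.0288 to 0.00237, Mx2 -0.0287 to 0.0752, Parp14 -0.0499 to 0.00444 and Cxcl10 -0.0334 to 0.0725. For the butyrate difference, the fits with arrays left out gave Irf1 -0.0703 to 0.00225, Irf8 -0.0489 to 0.0126, Stat2 -0.0327 to 0.0609, Oas2 -0.105 to 0.0594, Oasl2 -0.142 to 0.0643 and Ifitm2 -0.0449 to 0.0273. For the butyrate difference, the fits with arrays left out gave Ifitm3 -0.013 to 0.382, Irgm1 -0.176 to 0.0433, Iigp1 -0.0187 to 0.027, Dhx58 -0.0589 to 0.0198, Mx2 -0.0567 to 0.0472 and Trim25 -0.0681 to 0.0719. For the butyrate difference, the fits with arrays left out gave Cxcl10 -0.0722 to 0.0337, Tap1 -0.0252 to 0.0438, Ifnar1 -0.0723 to 0.0185 and Sp100 -0.0415 to 0.0186. For butyrate-morphine, the fits with arrays left out gave Irf9 -0.0439 to 0.000281, Ifitm1 -0.054 to 0.0159, Ifih1 -0.0402 to 0.00528, Dhx58 -0.0682 to 0.0106, Mx2 -0.00145 to 0.0545 and Trim25 -0.135 to 0.00487. For butyrate-morphine, the fits with arrays left out gave Dtx3l -0.0405 to 0.00852 and Cxcl10 -0.0105 to 0.0219. For both averaged, the fits with arrays left out gave Oas1a -0.0499 to 0.0472, Bst2 -0.0332 to 0.00556, Irgm1 -0.0982 to 0.0117, Dhx58 -0.0387 to 0.00067, Mx1 -0.0105 to 0.00512 and Mx2 -0.00507 to 0.0469. For both averaged, the fits with arrays left out gave Dtx3l -0.00338 to 0.0211 and Cxcl10 -0.0165 to 0.0364.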
